A study of Mus musculus with 32 samples.

Results

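Vcp and Tpm3 are mouse genes that each have an intronless copy elsewhere in the genome, Vcp-rs and Tpm3-rs7. These 4 genes, of 41388 listed in the deposited count tables, were chosen because parent and copy differed in opposite directions between the inbred strains LG/J and SM/J. Read counts assigned to Vcp were lower in LG/J and those assigned to Vcp-rs higher, while Tpm3 was higher in LG/J and Tpm3-rs7 lower. The strain differences of the 4 genes and of the parent and copy sums are therefore given as a description, without a test. Comparisons between the sexes, and of other genes between the strains, were not used in the choice and were tested.

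RNA had been sequenced from primary chondrocytes, the cells that make and maintain cartilage, which had been isolated from femoral heads at postnatal day 21 and grown unpassaged for 4 days in high glucose medium with serum. LG/J mice are known for good healing of wounds, SM/J mice for poor healing, and the study asked which pathways go with regeneration and degeneration of cartilage. Each strain was represented by 8 female and 8 male libraries of untreated cells, 32 in all, with no genetic modification or agent named in the labels. Nothing in the labels ties a library to 1 animal or well, so every p-value below measures the spread between libraries and may be technical.

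VCP, also called p97, is a hexameric ATPase that uses ATP to pull ubiquitin-tagged proteins out of membranes and complexes and passes many of them to the proteasome. It does so with cofactors that bind ubiquitin or trim it, and is known for its part in the disposal of misfolded proteins from the endoplasmic reticulum (ER-associated degradation, ERAD). Tropomyosins are coiled-coil proteins that lie along actin filaments and control the access of myosin, cofilin and other proteins to them, and Tpm3 gives rise to short isoforms outside muscle as well as to a muscle form. A retrocopy arises when a messenger RNA is copied back into DNA and inserted elsewhere in the genome, so it lacks introns and at first is nearly identical to its parent.

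The positions are those of GRCm38. Vcp (ENSMUSG00000028452) lies on chromosome 4 from 42979963 to 43000507 on the minus strand, and its main coding transcript has 17 exons. Vcp-rs (ENSMUSG00000083327) is 1 exon on the minus strand of chromosome X, from 104345829 to 104348234, annotated by GENCODE as a processed pseudogene. Tpm3 (ENSMUSG00000027940) lies on the plus strand of chromosome 3 from 90072649 to 90100902, and the transcript compared here, which encodes a short isoform, has 8 exons. Tpm3-rs7 (ENSMUSG00000058126) is 1 exon on the plus strand of chromosome 14, from 113314608 to 113316713, annotated by GENCODE as protein coding.

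The reference transcripts of parent and copy were compared to show how few bases can tell them apart. They come from GENCODE M21 and carry the reference strain's bases, and the alleles of LG/J and SM/J were not read here. Vcp-rs covers the whole coding sequence of Vcp and none of its untranslated regions, with 8 substitutions in 2406 aligned bases (99.67% identity) and 1 stretch of 15 bases missing. All 16 exon junctions of the Vcp transcript lie in the aligned part and are joined in the copy. The substitutions are G570A, T690C, T1485C, T1488C, C1539T, A1758T, C1813T and T2157C, with the base of Vcp first, the position counted from the A of the start codon of Vcp, and the base of Vcp-rs last. None of the 8 changes the encoded residue, and the missing stretch keeps the reading frame, so the reference Vcp-rs has an open frame of 802 codons from the start codon through the stop. The missing stretch is shown in capitals in the line of Vcp (chr4:42983110-42983378, minus strand, exon sequence across an intron), above the same place in Vcp-rs (chrX:104346515-104346554, minus strand).
Vcp: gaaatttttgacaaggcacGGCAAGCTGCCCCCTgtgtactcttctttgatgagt
Vcp-rs: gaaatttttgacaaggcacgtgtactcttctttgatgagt

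The closest pair of substitutions, T1485C and T1488C, is in capitals in the next lines, first in Vcp (chr4:42983551-42984321, minus strand, across an intron) and then in Vcp-rs (chrX:104346727-104346770, minus strand). They are shown because this stretch crosses an exon junction of Vcp that is joined in the copy.
Vcp: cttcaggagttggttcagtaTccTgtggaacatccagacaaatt
Vcp-rs: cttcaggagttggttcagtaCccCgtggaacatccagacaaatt

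Tpm3-rs7 covers the coding sequence of the short Tpm3 isoform, its 3′ untranslated region and part of the 5′ one, with 14 substitutions and 3 gaps of 6 bases in all over 2103 aligned bases (99.33% identity). All 7 exon junctions of that transcript are joined in the copy. In the coding sequence there are 3 substitutions, G72A, which keeps the residue, and G98A and G127A, which change it, counted from the A of the start codon of Tpm3. The reference Tpm3-rs7 has an open frame of 249 codons through the stop, as long as that of the Tpm3 transcript. The 3 coding substitutions lie in 1 stretch and are in capitals, first in Tpm3 (chr3:90079783-90086460, plus strand, across an intron) and then in Tpm3-rs7 (chr14:113314727-113314822, plus strand).
Tpm3: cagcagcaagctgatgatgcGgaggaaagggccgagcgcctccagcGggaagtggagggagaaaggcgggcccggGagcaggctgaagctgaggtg
Tpm3-rs7: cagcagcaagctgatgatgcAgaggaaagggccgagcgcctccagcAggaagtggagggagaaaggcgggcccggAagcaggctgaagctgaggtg

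Much of each copy cannot be told from its parent by a short stretch. Of all 50-base windows of Vcp-rs, 83.2% occur letter for letter in the Vcp transcript, and of 100-base windows 71.8%. For Tpm3-rs7 the shares found in Tpm3 are 69.4% and 49.8%. In the other direction, 60.1% of the 50-base windows of the Vcp transcript occur in Vcp-rs, and 51.5% of the 100-base windows. For the Tpm3 transcript the shares found in Tpm3-rs7 are 66.8% and 47.9%. The sources used here do not give the read length, the treatment of reads that match several places or the strand setting. How reads were divided between parent and copy is therefore uncertain for all 4 genes, and the sum of each pair does not depend on that division as long as the reads were counted in 1 of the 2 genes.

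**Figure D1:**
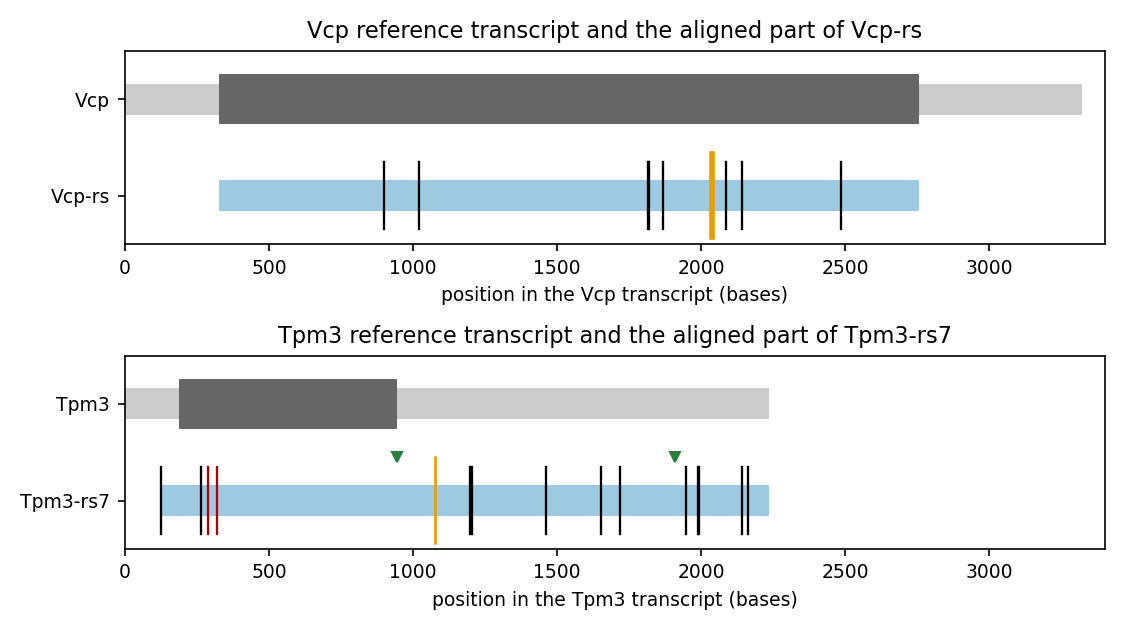
Differences between each parent transcript and its copy in the reference, by position in the parent transcript in bases. In the row of the parent the wide dark bar is the coding sequence, and in the row of the copy the blue bar is the aligned part, with black lines for substitutions, red lines for those that change a residue, orange for bases missing from the copy and green triangles for bases missing from the parent. Vcp-rs has 8 substitutions and 1 gap, and Tpm3-rs7 has 14 substitutions and 3 gaps, of which 3 substitutions lie in the coding sequence.

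Total counts per library ran from 15840330 to 25571598. The 2 LG/J libraries with the number 1 differed from the rest of their strain, 6 libraries held transcripts of both sexes, and 6 pairs of libraries within groups were closer to each other than the rest. Fold changes, sex tests and counts of genes called were also computed without the first 2, without the 6, and with the close pairs summed. Counts of cell type markers, levels, copy shares, correlations and the searches for alike genes were computed on all 32 libraries only. The chondrocyte markers Col2a1, Acan, Sox9 and 6 others were all detected. Their summed level was 1322 to 31310 CPM (read counts scaled to a common library total) in LG/J and 6531 to 21550 in SM/J. Of the 9, 3 (33.3%), Hapln1, Sox9 and Acan, were higher in LG/J, against 16.4% of all genes, and the other 6 did not pass. Levels below are CPM after scaling with trimmed mean of M-values (TMM) factors unless stated otherwise.

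Vcp had the lower level in LG/J. In the 16 LG/J libraries it ranged from 4.898 to 10.57 CPM with a median of 8.569, from 117 to 257 reads, and in the 16 SM/J libraries from 26.8 to 42.51 CPM with a median of 34.18, from 577 to 1113 reads. The highest LG/J library lay below the lowest SM/J library. The log2 fold change was -2.07 ± 0.08 (SE of the fit, n = 16 each), which is 4.19-fold lower in LG/J. In females the medians were 8.789 and 37.95 CPM in LG/J and SM/J, and in males 8.001 and 33.31 CPM.

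Vcp-rs went the other way. It ranged from 21.88 to 28.22 CPM with a median of 25.72 in LG/J (382 to 647 reads), and from 0.8974 to 2.648 CPM with a median of 1.454 in SM/J (17 to 59 reads). No SM/J library came near the LG/J range. Its log2 fold change was 4.07 ± 0.11, 16.8-fold higher in LG/J. The LG/J libraries lay close together, with a coefficient of variation of 7.98%, against 30.8% in SM/J, where few reads were counted.

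The sum of Vcp and Vcp-rs lay in overlapping ranges in the strains. It ranged from 27.51 to 37.19 CPM with a median of 34.23 in LG/J, and from 28.02 to 44.76 CPM with a median of 35.69 in SM/J. The log2 fold change of the sum was -0.09 ± 0.06, with a 95% interval from -0.20 to 0.02. The mean level in LG/J minus that in SM/J was -26.49 CPM for Vcp and 24.19 CPM for Vcp-rs, which left -2.298 CPM in the sum. As a share of the pair's counts, Vcp-rs took 70.0% (95% Wilson interval 66.0 to 73.7) in the LG/J library with the lowest share and 82.2% (79.1 to 84.9) in that with the highest. In SM/J it took 2.45% (1.54 to 3.89) in the lowest and 6.31% (4.89 to 8.1) in the highest. These intervals cover counting error only.

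**Figure D2:**
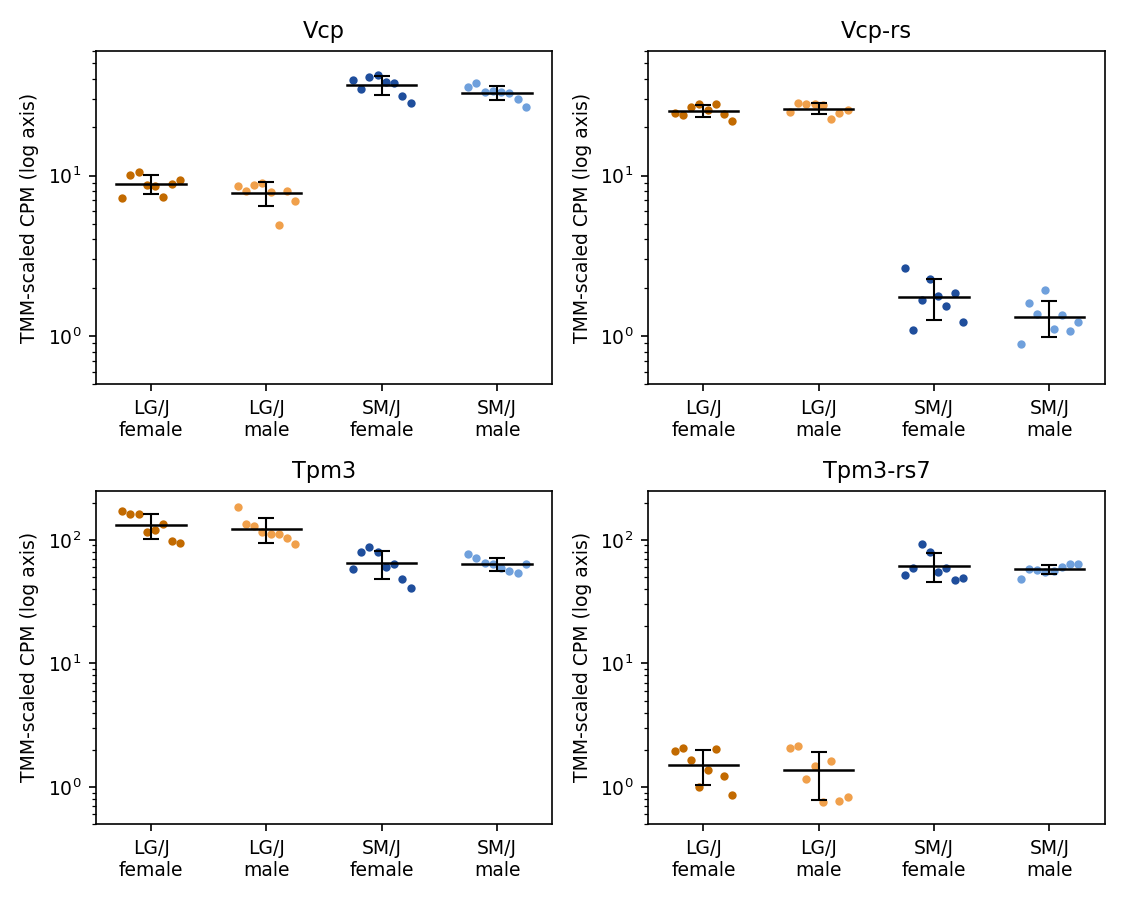
Levels of the 4 genes in each library as TMM-scaled CPM on a log axis, by strain and sex, with 8 libraries a group. Points are libraries, and the bars are the mean ± SD of each group. In each panel the LG/J and SM/J points do not overlap, Vcp and Tpm3-rs7 being lower and Vcp-rs and Tpm3 higher in LG/J.

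Tpm3 was higher in LG/J. It ranged from 92.59 to 182.8 CPM with a median of 117.5 in LG/J (1648 to 3928 reads), and from 40.96 to 87.54 CPM with a median of 63.43 in SM/J (837 to 2105 reads). The lowest LG/J library stood just above the highest SM/J library. Its log2 fold change was 0.98 ± 0.11, 1.98-fold higher in LG/J. Of the 4 genes this was the smallest difference, and the gap between the strains' ranges was narrowest here. In the 2 LG/J libraries numbered 1, Tpm3 was at 171.9 CPM in the female and 182.8 CPM in the male, and without these libraries the log2 fold change was 0.90.

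Tpm3-rs7 had the largest difference. It ranged from 0.7567 to 2.16 CPM with a median of 1.436 in LG/J (15 to 45 reads), and from 47.4 to 92.87 CPM with a median of 57.59 in SM/J (909 to 2104 reads). Every SM/J library was far above every LG/J library. The log2 fold change was -5.38 ± 0.16, 41.5-fold lower in LG/J.

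The sum of Tpm3 and Tpm3-rs7 also overlapped between the strains. It ranged from 93.42 to 184.9 CPM with a median of 118.7 in LG/J, and from 90.33 to 180.4 CPM with a median of 120.5 in SM/J, and these ranges nearly coincided. The log2 fold change was 0.05 ± 0.10, with a 95% interval from -0.15 to 0.25. Mean Tpm3 was higher in LG/J by 62.73 CPM, and mean Tpm3-rs7 differed by -58.31 CPM, which left 4.411 CPM in the sum. Tpm3-rs7 took 0.68% of the pair's counts (Wilson interval 0.425 to 1.09) in the LG/J library with the lowest share and 1.59% (1.19 to 2.12) in that with the highest. In SM/J its share was 38.5% (36.5 to 40.4) in the lowest and 54.7% (52.4 to 56.9) in the highest.

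None of the 4 genes overlapped between the 16 LG/J and the 16 SM/J libraries, which was so for 2.62% of the 16136 genes kept for testing (1.36% with LG/J higher and 1.26% with LG/J lower). Because the genes were chosen on this contrast, nothing is read from that count. The median log2 fold change of all genes kept was 0.02.

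**Figure D3:**
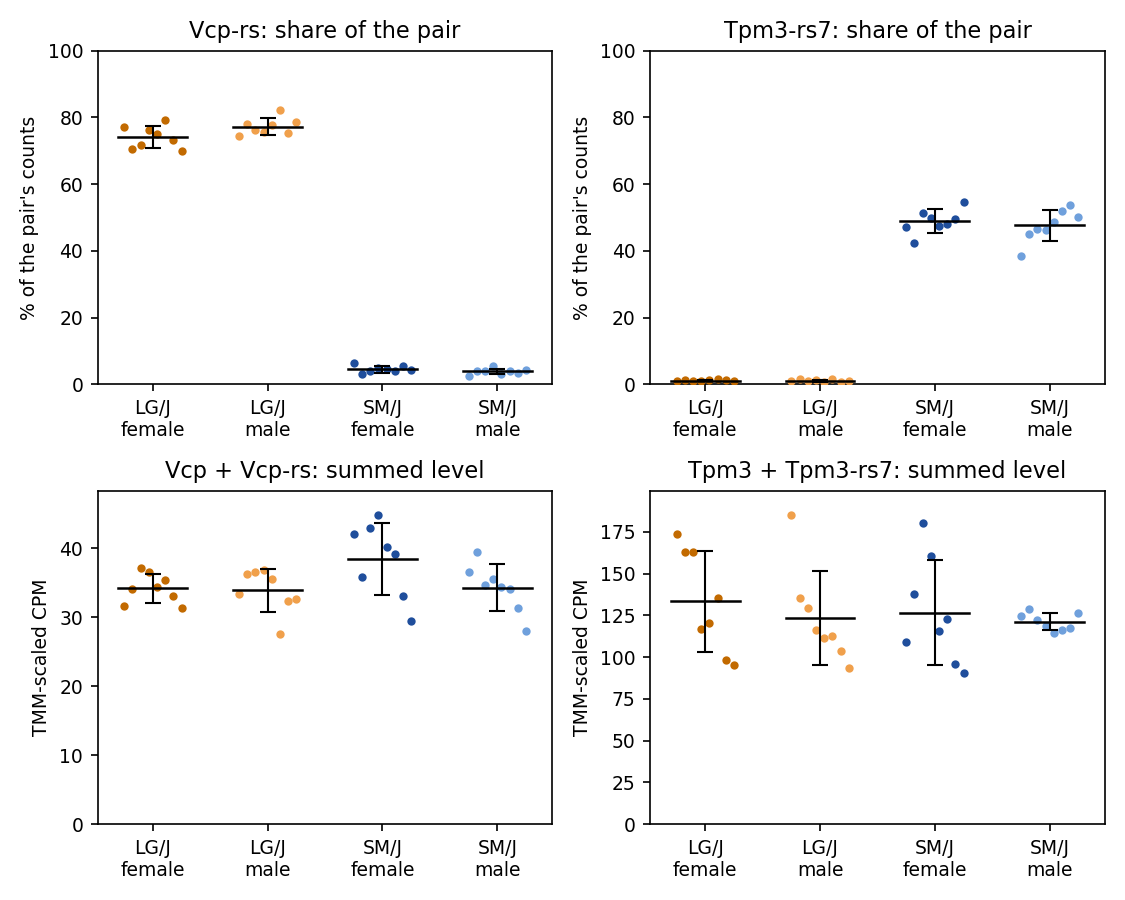
Share of the copy in the counts of its pair (upper panels, %) and the summed TMM-scaled CPM of parent and copy (lower panels) for each library, by strain and sex, with the mean ± SD of 8 libraries. The share of Vcp-rs is 70.0% to 82.2% in LG/J and 2.45% to 6.31% in SM/J, that of Tpm3-rs7 0.68% to 1.59% and 38.5% to 54.7%, while the sums overlap between the strains.

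Per length, the order of the 4 genes differed between the strains. With the deposited RPKM (CPM divided by the gene length in kilobases), the LG/J medians were 20.25 for Tpm3, 10.88 for Vcp-rs, 1.736 for Vcp and 0.698 for Tpm3-rs7, and no neighbours in this order overlapped. In SM/J they were 27.14 for Tpm3-rs7, 10.51 for Tpm3, 6.955 for Vcp and 0.5972 for Vcp-rs, and only the ranges of Tpm3 and Vcp overlapped, with Tpm3 above Vcp in 16 of 16 libraries. The gene lengths used in the tables, 4851 bases for Vcp and 6085 for Tpm3, join the exons of all annotated isoforms, against 2406 and 2106 bases for the copies. RPKM of the parents is thus divided by more sequence than any 1 transcript holds.

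Within a strain, Tpm3 and Tpm3-rs7 varied together, with a Pearson correlation of log2 CPM of 0.78 in LG/J and 0.61 in SM/J (n = 16 libraries each). For Vcp and Vcp-rs it was 0.21 in LG/J and 0.55 in SM/J. The deviations from the 4 group means correlated at 0.70 for the Tpm3 pair and 0.33 for the Vcp pair over the 32 libraries. Such values were not limited to parent and copy. Vcp and Tpm3 correlated at 0.24 in LG/J, 0.65 in SM/J and 0.40 in the deviations. In the deviations Vcp with Tpm3-rs7 was at 0.03, Vcp-rs with Tpm3 at 0.08 and Vcp-rs with Tpm3-rs7 at 0.09. Parent and copy share library, depth and, in the aligned part, nearly all their sequence. The less used gene of a pair mostly rests on few reads, so these values are descriptions.

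The sexes did not differ beyond the test's threshold in any of the 4 genes or in either sum. Over both strains, 3.46% of the genes kept were called between males and females at an adjusted p under 0.05 by the quasi-likelihood test of edgeR, and among the 577 X-linked genes kept 7.28%. Males minus females, the log2 fold change was -0.17 ± 0.07 for Vcp (adjusted p = 0.195), -0.19 ± 0.10 for Vcp-rs (0.292), -0.07 ± 0.11 for Tpm3 (0.775) and -0.13 ± 0.14 for Tpm3-rs7 (0.654). With no adjustment, edgeR's quasi-likelihood p over both strains was under 0.05 for Vcp alone among the members. DESeq2 called none of the 4 over both strains. For the sums the values were -0.09 ± 0.06 for Vcp and Vcp-rs (adjusted p = 0.4) and -0.09 ± 0.10 for Tpm3 and Tpm3-rs7 (0.687).

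In SM/J, Vcp-rs, the X-linked copy, came closest to a sex difference. It ranged from 1.092 to 2.648 CPM with a median of 1.736 in the 8 females and from 0.8974 to 1.931 CPM with a median of 1.284 in the 8 males, so the sexes overlapped. The log2 fold change of males against females was -0.42 ± 0.15, with a 95% interval from -0.72 to -0.12 (adjusted p = 0.0843 with edgeR). DESeq2 called it (adjusted p = 0.0469), and over the edgeR settings tried the adjusted p lay between 0.0706 and 0.261. In SM/J 5.76% of all genes were called between the sexes. In LG/J, where 0.0496% of genes were called, Vcp-rs differed by 0.05 ± 0.13 (adjusted p = 0.98), and the test of whether the strain difference depended on sex gave 0.47 ± 0.19 (adjusted p = 0.478). That test called 1 gene of all those kept, or 0.0062%. The libraries that held transcripts of both sexes included 2 SM/J females and 2 SM/J males. Without all 6 such libraries the value in SM/J was -0.43, with an adjusted p of 0.198.

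**Figure D4:**
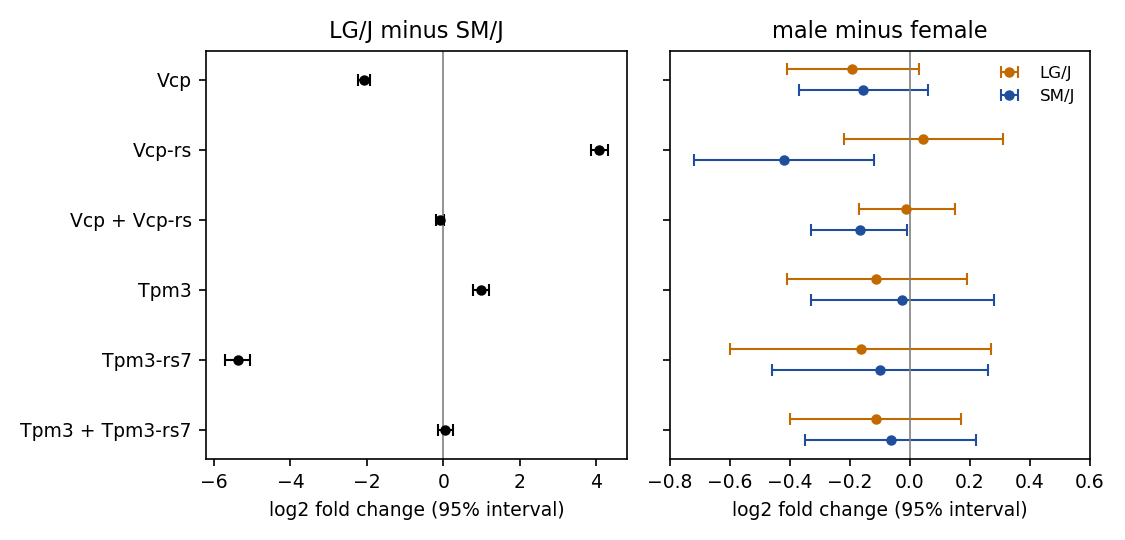
Log2 fold changes of the 4 genes and the 2 sums, as points with 95% intervals, for LG/J minus SM/J (left, not tested) and for male minus female in LG/J (orange) and SM/J (blue). The 4 genes lie between -5.38 and 4.07 for strain while the sums lie at -0.09 and 0.05, and for sex the interval of Vcp-rs in SM/J runs from -0.72 to -0.12.

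Other annotated copies were looked for. A search of GENCODE transcripts at 90% identity or more found no other copy of Vcp. For Tpm3 it found Tpm3-rs2, a pseudogene of 91% identity over 324 bases, which had 0 to 2 reads per library, 0 in all LG/J libraries and 3 in all SM/J libraries together, below the filter. Gm7839 and Gm4903, which also resemble Tpm3, are not listed in the deposited count tables, so their levels could not be read.

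Genes next to Vcp and Tpm3 differed in both directions between the strains, as far as they differed. Between the strains 29.9% of all genes kept were called (16.4% higher and 13.5% lower in LG/J). Around Vcp, 9 genes within 250 kb were kept, of which 2 were higher and 2 lower in LG/J, with a median log2 fold change of 0.14. Fancg, a DNA repair gene of the Fanconi anaemia pathway that lies 1836 bases from Vcp on the same strand, averaged 29.79 ± 4.14 CPM in LG/J and 18.09 ± 2.31 in SM/J (SD, n = 16 each). Its log2 fold change was 0.72 ± 0.07 (adjusted p = 7.16e-10), opposite in sign to that of Vcp. 1700022I11Rik, which overlaps Vcp on the opposite strand and shares 352 exon bases with it, was also higher (1.62 ± 0.32, adjusted p = 0.000188). Its level was low, at 0.59 ± 0.25 CPM in LG/J and 0.19 ± 0.15 in SM/J (SD), with at most 19 reads in a library. Gm26881 was lower (-0.77 ± 0.16, adjusted p = 0.00025). Without a known strand setting, reads of Vcp and 1700022I11Rik over the shared bases cannot be told apart.

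Around Tpm3, 15 genes were kept with a median log2 fold change of 0.00. Jtb was lower (-0.39 ± 0.06, adjusted p = 1.43e-05) and Atp8b2, a lipid flippase gene, higher (0.25 ± 0.08, adjusted p = 0.0118, and 0.0727 with close libraries summed). The tables listed 1 other gene within 250 kb of Tpm3-rs7, and it was below the filter.

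**Figure D5:**
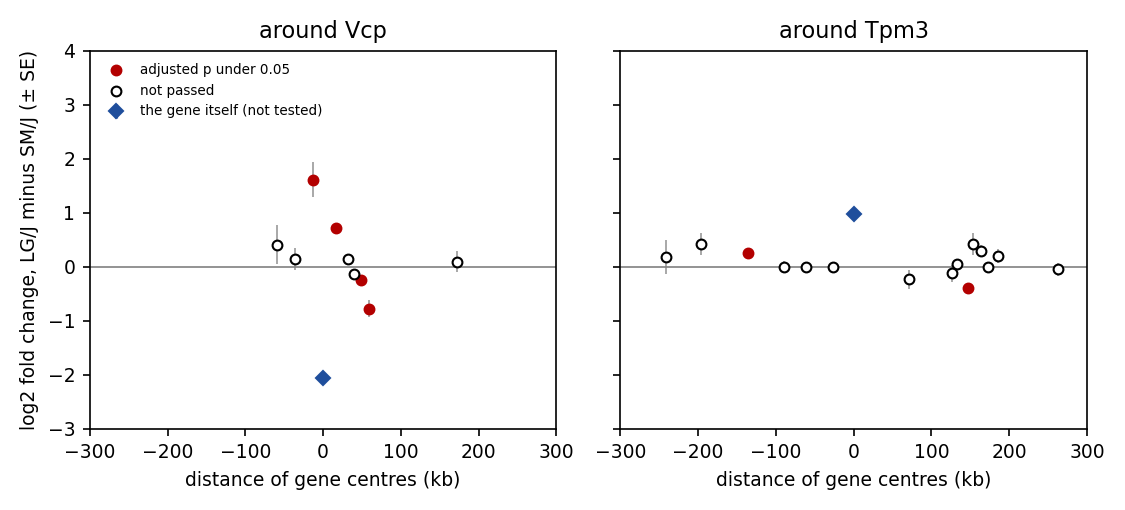
Log2 fold change between the strains (LG/J minus SM/J, ± SE) of genes within 250 kb of Vcp and Tpm3, by distance between gene centres in kb. Filled red points passed an adjusted p under 0.05, open points did not, and the blue diamond is the gene itself, at -2.07 and 0.98. The neighbours lie between -0.39 and 0.42 apart from 1700022I11Rik at 1.62, Gm26881 at -0.77 and Fancg at 0.72.

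The partners of VCP differed in both directions and by little. Of 36 cofactors and ERAD genes, all kept, 7 rose and 6 fell in LG/J against SM/J and 23 did not pass, with a median log2 fold change of -0.08. The higher share, 19.4%, and the lower share, 16.7%, stand against 16.4% and 13.5% of all genes. Ube4a, a ubiquitin chain elongation factor, averaged 62.92 ± 7.52 CPM in LG/J and 40.53 ± 6.85 in SM/J (0.65 ± 0.06, adjusted p = 3.94e-10). Vcpip1 (0.35) and Atxn3 (0.35), both deubiquitinases that bind VCP, and the DNA helicase gene Wrn (0.42) were also higher. Zfand2a, a zinc finger protein induced by arsenite that acts with VCP and the proteasome, was lower, at 61.39 ± 9.58 against 98.09 ± 16.5 CPM (-0.67 ± 0.08, adjusted p = 3.18e-08). The cofactor gene Ubxn2b (-0.38), the chain elongation factor gene Ube4b (-0.27) and Vcpkmt (-0.31), the methyltransferase of VCP, were lower too. Vcpkmt lost the call without the 6 libraries with both sexes' transcripts (-0.25, adjusted p = 0.0936) and with close libraries summed (-0.26, adjusted p = 0.0814). None of the 36 genes was free of overlap between the strains, against 2.62% of all genes. Between the sexes, over both strains, 5 of the 36 were called, against 3.46% of all genes.

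The proteasome, to which VCP hands substrates, had no subunit gene higher in LG/J, against 16.4% of all genes. Of 31 subunit genes 6 were lower (19.4%, against 13.5% of all genes) and 25 did not pass, with a median of -0.09. Psmd8, a subunit of the lid of the regulatory particle, averaged 235.1 ± 15.9 CPM in LG/J and 395.2 ± 59.7 in SM/J (-0.75 ± 0.06, adjusted p = 1.25e-11). No LG/J library reached the lowest SM/J library. The strains did not overlap for 1 of the 31 subunit genes, against 2.62% of all genes. The other named subunits differed less. Psmb5, a catalytic subunit, was lower by a log2 fold change of -0.27 (adjusted p = 0.00313), Psmb4 by -0.25 (0.000971) and Psmd13 by -0.26 (0.00739). Psmd13 lost the call with scaling by library size only and with close libraries summed, settings under which 3 subunits in all were called lower. In these settings all genes called between the strains fell too, from 4827 of 16136 to 4345 of 16136 and 3603 of 16328.

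Among genes of actin filaments and other tropomyosins, more were lower than higher in LG/J. Of 32 genes 30 were kept, of which 3 were higher (10.0%, against 16.4% of all genes), 11 lower (36.7%, against 13.5%) and 16 did not pass. The median was -0.28. Without the 6 libraries with both sexes' transcripts 6 were lower, and all genes called between the strains fell from 4827 of 16136 to 3901 of 16387. Of the other tropomyosins Tpm1 (-1.07, adjusted p = 0.00049) and Tpm2 (-0.805, 0.00286) were lower, and Tpm4 did not pass (-0.44, 0.11). Acta2, smooth muscle actin, had the largest difference among the named genes, at 55.23 ± 60.05 CPM in LG/J and 335.3 ± 194.0 in SM/J (-2.70 ± 0.47, adjusted p = 3.51e-05). Lmod1, an actin nucleator of smooth muscle, was lower at a low level (-1.37, adjusted p = 0.000132), as were the myosin light chain gene Myl6 (-0.46, 0.000158) and Cfl2, a cofilin that severs actin filaments (-0.33, 2.35e-06). Myh10, a nonmuscle myosin heavy chain gene, was higher (0.59, adjusted p = 3.5e-06). Pfn1 (0.48, adjusted p = 0.0259) and Tmod1, which caps the pointed end of filaments with tropomyosin (0.82, adjusted p = 0.0385), were higher, but both calls were lost with no filter and with close libraries summed (in the latter adjusted p = 0.0735 for Pfn1 and 0.139 for Tmod1), and that of Tmod1 also without both LG/J libraries numbered 1 or those of both sexes (up to 0.154). Of 6 markers of smooth muscle and myofibroblasts 2 (33.3%), Acta2 and Tagln, were lower and none was higher. The other 4 did not pass, with log2 fold changes of 0.43 for Myh11, -0.03 for Cnn1, -0.35 for Des and -0.64 for Actg2. The summed level of the 6 was 8.321 to 348 CPM in LG/J and 140.6 to 1222 in SM/J. Acta2, Tagln, Cnn1 and Actg2 belong to both lists, and the markers' part in the counts of the list was not tested. None of the 6 was at 0 in all libraries. In bulk samples fewer cells of a type and less RNA per cell cannot be told apart.

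Markers of other cell types are read against the 16.4% of all genes called higher and 13.5% called lower in LG/J. Of 7 macrophage markers 2 (28.6%) were lower in LG/J, Lyz2 and Fcgr3, with a median log2 fold change of -1.41 over the 7 and a summed level of 31.91 to 1638 CPM in LG/J and 88.36 to 1163 in SM/J. The other 5 did not pass, at 0.57 for Cd14, -0.01 for Mrc1, -0.24 for Cd68, -1.41 for Csf1r and -1.84 for Adgre1. Lyz2 averaged 95.09 ± 249.1 CPM in LG/J, with a highest library of 1023 CPM, and 213.8 ± 109.0 in SM/J, with a highest of 451.9 CPM (SD). Of 7 skeletal muscle markers kept, of 12 listed, 2 (28.6%) were higher and 1 (14.3%) lower, at a summed level of 18.85 to 67.17 CPM in LG/J and 28.48 to 67.01 in SM/J. None of the 6 osteoblast markers, and none of the 3 endothelial markers kept of 5, passed. Their part in the levels of the 4 genes was not tested.

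The genes whose levels were most like those of the 4 over the 32 libraries were ones with large strain differences. The search ran over 8111 genes whose mean log2 CPM was 3 or more, and all points share strain and library. The members, their annotated copies, IDs without a symbol and names of predicted genes or pseudogenes were left out, so none of these could be found. For Vcp the closest were Tmem87a (Pearson r = 0.978), Stk25 (0.976), Rpl14 (0.974) and Traf3ip1 (0.97). For Tpm3-rs7 they were Stk25 (0.985), Git2 (0.985), Tmem87a (0.985) and Traf3ip1 (0.984), of which Stk25, Tmem87a and Traf3ip1 are also named for Vcp. The closest to Vcp-rs were Ywhaz (0.989), Cramp1l (0.989), Rps26 (0.985), Rab5b (0.978) and Cbfa2t2 (0.977), and to Tpm3 they were Zfp57 (0.948), Sord (0.939), Sept10 (0.925), Ncs1 (0.922) and Sirt7 (0.916).

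With the 4 group means removed, other genes came first. For Tpm3 these were Zfp57 (0.894), the growth factor receptor gene Fgfr1 (0.886), Afdn (0.873), Arl5c (0.858) and Pxk (0.855), and for Tpm3-rs7 they were Lbr (0.808), Emp1 (0.786), Dok1 (0.785), Loxl3 (0.781) and Nid1 (0.772). For Vcp-rs they were Ewsr1 (0.749), the proteasomal ubiquitin receptor gene Adrm1 (0.708), Ndel1 (0.641), Dhx29 (0.64) and Rrp8 (0.634). For Vcp they were Syde1 (0.72), Ptpmt1 (0.706), Zbtb1 (0.692), Rcn2 (0.69) and Tssc4 (0.674). Of the genes named, only Zfp57 was among the closest to 1 member in both ways, and the 2 members of a pair shared no name once the group means were removed.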

How the data were processed

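Libraries of primary chondrocytes were grouped by strain and sex, per the titles, into 4 groups of 8. The submitters' processing notes name GRCm38, STAR 2.0.4b, featureCounts 1.45 and Subread, without their settings. The authors deposited whole-number read counts for 41388 Ensembl genes, with CPM (counts scaled to the library total) and RPKM (CPM per kilobase of gene length), and recomputing both from the counts matched them within 1.2e-10. The annotation release is not given in the sources used here. Symbols were found for 40254 IDs, and the others held 0.109% of counts.

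In R 4.3.3, filterByExpr kept 16136 genes, and TMM-scaled counts were modelled with 4 group means, robust quasi-likelihood tests of edgeR 4.0.16 and Benjamini-Hochberg adjustment over all genes kept, calling an adjusted p under 0.05. Sums were modelled with parent and copy replaced by their summed counts. Errors of fold changes are standard errors, and intervals are at 95%. The script was tested on simulated data. Transcripts were compared with Biopython 1.88 and blastn 2.17.0, asking 90% identity over 30% of copy or parent.

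The 4 genes, lists and settings were chosen with earlier results of these data known. Named genes were the 4 members and their sums, up to 3 called neighbours within 250 kb of each member with the smallest p, up to 4 called genes each way of each list, other copies passing the filter and the 5 genes most like each member. Some genes that this rule names are not reported here. Tpm3-rs2, Gm7839 and Gm4903 were named as the other copies found. Lyz2, Fcgr3, Tagln, Col2a1, Acan, Sox9 and Hapln1 were named as markers, with all other markers of macrophages and of smooth muscle and myofibroblasts. Tpm1, Tpm2 and Tpm4 were named as the other tropomyosins. Alternatives were DESeq2's size factors, library size only, no filter, a stricter filter (a CPM of 1 in 8 libraries), DESeq2 1.42.0, the library number as a block, leaving out both LG/J libraries numbered 1, leaving out 6 libraries with transcripts of both sexes, and summing libraries of a group that differed by less than 5 times sampling noise, which left 26.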

Additional observations from a re-analysis of the deposited data

Results flagged for a closer look

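In the LG/J males, library 1 stood apart from the other 7 in the level of Tpm3, at 182.8 CPM against 133.6 CPM in the next library and 92.59 CPM in the lowest. The gap to the next library was 0.545 of the range of the group. The sum of Tpm3 and Tpm3-rs7, which is nearly all Tpm3 in LG/J, stood apart in the same library, at 184.9 CPM against 135.7 CPM in the next, a gap of 0.538 of the range. In all, 32 combinations of measure and group were checked, and chance alone marks about 1 in 20 groups. Vcp, Vcp-rs and Tpm3-rs7 in this library were at 8.573, 24.84 and 2.08 CPM and were not marked. This library is 1 of the 2 LG/J libraries numbered 1. Without both of them the log2 fold change of Tpm3 between strains was 0.90 and that of the sum -0.03.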

How the results depend on the processing

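The strain differences of the 4 genes kept their sign under all 9 alternatives, from -2.08 to -2.01 for Vcp, 4.06 to 4.12 for Vcp-rs, 0.90 to 1.095 for Tpm3 and -5.45 to -5.23 for Tpm3-rs7. The sum of Vcp and Vcp-rs ran from -0.10 to -0.05, and that of Tpm3 and Tpm3-rs7 from -0.03 to 0.17, its sign differing between settings. Sex differences near 0 changed sign. In LG/J that of the Vcp sum became 0.004 with no filter and 0.008 without libraries holding transcripts of both sexes. In SM/J, without those libraries, Tpm3 became 0.079, Tpm3-rs7 0.095 and the Tpm3 sum 0.087, and with close libraries summed Tpm3 became 0.052 and the Tpm3 sum 0.008. Vcp-rs between the sexes in SM/J passed with DESeq2 (-0.419, adjusted p = 0.0469).

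Genes called between the sexes over both strains numbered 558, against 123 with no filter, 1029 with DESeq2, 921 without both LG/J libraries numbered 1 and 31 with close libraries summed. In SM/J 929 became 388 with no filter, 1402 without both LG/J libraries numbered 1, 492 without libraries holding transcripts of both sexes and 184 with close libraries summed. In LG/J 8 became 4 with library size only, 20 with DESeq2 and 3 with close libraries summed. The 1 gene whose strain difference depended on sex became 0 with library size only, no filter, the block, the libraries of both sexes left out or close libraries summed, and 50 with DESeq2. Genes called between the strains numbered 4827 of 16136, against 4345 of 16136 with library size only and 5123 of 35652 with no filter. They numbered 3901 of 16387 without libraries holding transcripts of both sexes and 3603 of 16328 with close libraries summed. Calls within lists and neighbourhoods fell to 3 lower proteasome genes with library size only, and to 1 higher actin filament gene with no filter. Without libraries holding transcripts of both sexes, 6 actin filament genes were lower. With close libraries summed there were 3 lower VCP partners, 3 lower proteasome genes, 1 higher actin filament gene and 4 called neighbours in place of 7. The cause was not tested in any of these.

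The library number as a replicate block raised the calls between the sexes to 1045 over both strains and to 1433 in SM/J and took the 1 sex-dependent call to 0. It changed no call of the 4 genes or the sums. Deviations from group means of libraries with the same number correlated at a median of 0.14 (-0.45 to 0.84), against -0.01 for different numbers. Of 48 such pairs 30 were over 0.1, and 7 of 32 libraries correlated best with one of their own number. Since not every pair was over 0.1 and the labels tie no number to an animal or day, the numbers were not taken to pair the libraries. Depth limits the copies: Vcp-rs rests on 17 to 59 reads per library in SM/J and Tpm3-rs7 on 15 to 45 in LG/J.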
